A study of Homo sapiens with 6 samples.

Results

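The genes that copy DNA and open S phase were followed in L3.6pl, a pancreatic cancer line of human origin that has long been kept in culture, after FACS sorting on surface L1CAM, a cell adhesion molecule. The 45 genes were chosen by symbol, as genes of replication licensing, the fork, nucleotide supply, chromatin assembly, repair at forks and the G1/S transition. All 45 were among the 19469 genes of the deposited count table. Each group held 3 libraries: L1high cells (L1CAM_POSITIVE in the sample titles) and L1low cells (L1CAM_NEGATIVE), both untreated and with no genetic change named in the labels, separated with an antibody to L1CAM. Both groups came from a single line, and although the study states that its sorting experiments were repeated independently, the labels do not tie the libraries to separate cultures or sorts, so the p-values may measure only the spread between these libraries, which may be technical. The cell line tag of the labels reads L6.6pl, while the titles and the study read L3.6pl.

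Before S phase, cells load the MCM2 to MCM7 helicase onto origins with the help of the origin recognition complex, CDC6 and CDT1, a step called licensing. Cyclin E and E2F transcription factors then start S phase, the helicase is activated by CDC45 and GINS, and polymerases, the PCNA clamp and the clamp loader copy both strands while ribonucleotide reductase supplies the building blocks. Many of these genes are E2F targets whose transcripts rise as cells enter S phase, so that in cultured cancer cells their summed level is commonly read as a measure of proliferation.

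Values per library are CPM, that is read counts scaled to a common library total with TMM factors. A gene is called where its Benjamini-Hochberg adjusted p, from the quasi-likelihood test of edgeR on 19467 genes in the 6 libraries, was under 0.05. A log2 fold change is L1low minus L1high, so that a negative value is lower in L1low cells. Library totals ran from 16334610 to 21064685 counts. The sorting marker L1CAM stood at 81.1 ± 10.2 CPM in L1high cells and 20.5 ± 3.01 in L1low cells (SD, n = 3 each). All 6 epithelial markers examined (EPCAM, CDH1, KRT7, KRT8, KRT18 and KRT19) were in the table and summed to between 4232 and 4785 CPM in L1high and between 4780 and 5130 CPM in L1low libraries, with EPCAM called lower (-0.30) and KRT19 called higher (0.63). The table holds only genes above 1 CPM in at least 2 libraries, and it lacked PDGFRA, PDGFRB, DCN, FAP, THY1, PTPRC, CD3E, CD14, LYZ, CDH5, KDR and VWF. The 3 fibroblast markers it did hold (LUM, COL3A1 and ACTA2) summed to between 86.7 and 98.5 CPM in L1high and between 140 and 160 CPM in L1low libraries, a rise called for LUM alone, and their part in the results below was not tested. CD68, of the immune markers, stood between 8.42 and 8.81 CPM in L1high and between 9.37 and 11.3 in L1low libraries, and PECAM1, of the endothelial markers, between 11.3 and 11.9 and between 13.2 and 14.7, neither of them called.

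The replication genes were lower in L1low cells. Of the 45, 43 had a log2 fold change below 0, against 51.5% of all genes tested, and 15 were called lower (33.3%), against 3.37% of all genes (7.95% were called in either direction). Among the 12021 genes with levels in the range of the 45, 4.21% were called lower. No replication gene was called higher, against 4.58% of all genes, none had an unadjusted p under 0.05 in that direction (11.9% of all genes had), and DESeq2 called none higher. The median log2 fold change of the 45 was -0.20, beside -0.01 over all genes, and the extremes were -0.56 for RRM2 and 0.03 for NASP. An unadjusted p under 0.05 with a lower level was found in 25 of the 45, against 11.4% of all genes. The 15 called genes were lower by between 15.3% (MCM4) and 32.4% (RRM2).

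The summed level of the 45 genes was 4224, 4251 and 4214 CPM in L1high replicates 1, 2 and 3 and 3687, 3590 and 3693 CPM in L1low replicates 1, 2 and 3, a difference of 13.5% between the group means. The groups did not overlap in this sum. In 27 of the 45 genes all 3 L1low libraries lay below all 3 L1high libraries, against 13.7% of all genes, and in none did they lie above (15.2% of all genes). These 27 comprised all 15 called genes and 12 others. In sorted populations, a smaller share of cells in S phase and less of these transcripts per cell cannot be told apart.

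**Figure D1:**
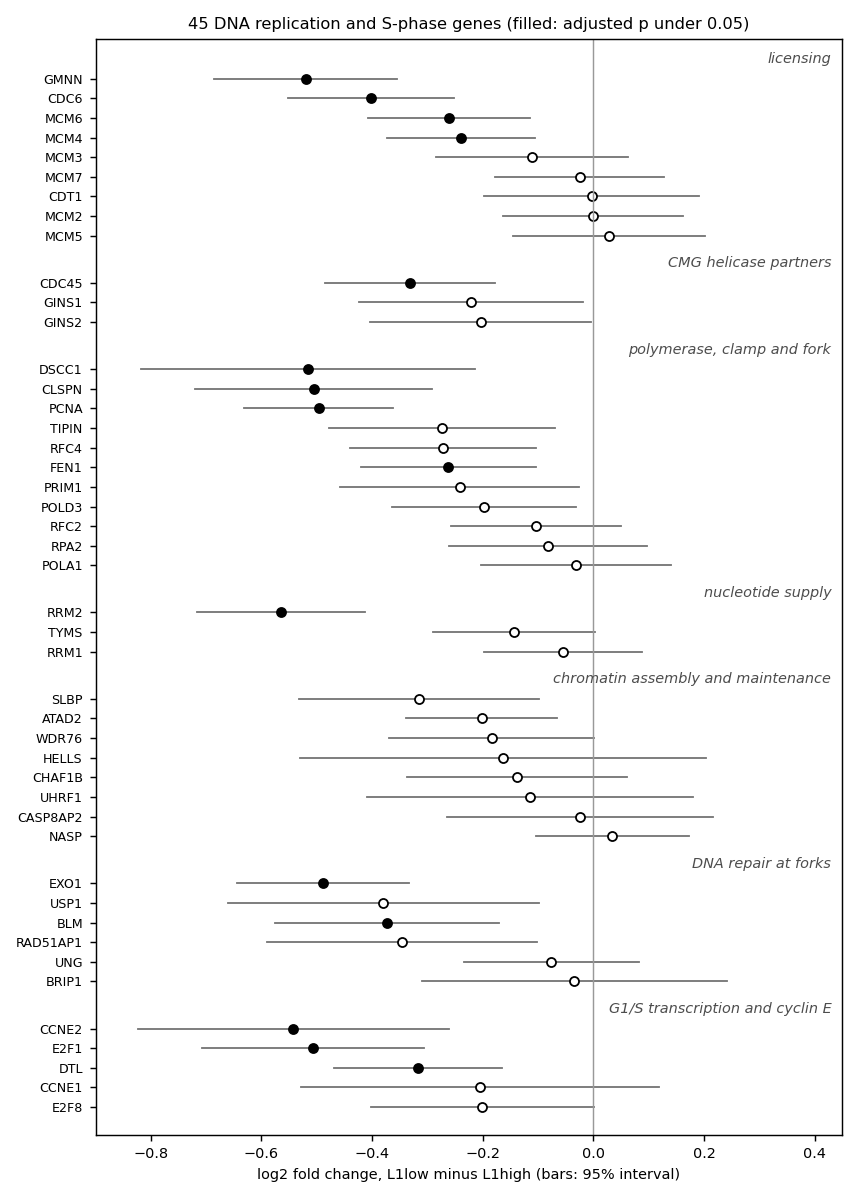
Log2 fold change (x axis, L1low minus L1high) of each of the 45 genes, grouped by role, with 95% intervals from the edgeR fit; filled circles are the 15 genes called lower. Circles run from -0.56 (RRM2) to 0.03 (NASP), and each role except chromatin assembly holds at least 1 filled circle.

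Of the 5 genes of G1/S transcription and cyclin E, 3 were called lower, against 3.37% of all genes. E2F1 (ENSG00000101412; chromosome 20, 33675477 to 33686385 on GRCh38), an activator E2F, stood at 35.8, 35.1 and 39.5 CPM in the L1high libraries and 25.6, 24.2 and 27.7 CPM in the L1low libraries. Every L1low library was below every L1high library, and E2F1 fell with a log2 fold change of -0.51 (standard error 0.09, edgeR adjusted p = 0.0058). CCNE2 (cyclin E2), a partner of CDK2 at S phase entry, stood at 16.1, 21.1 and 16.3 CPM in L1high and 12.5, 12.9 and 11.4 CPM in L1low libraries. The groups were separate, but L1high replicate 2 stood above the other libraries of its group. The log2 fold change of CCNE2 was -0.54 (standard error 0.13, edgeR adjusted p = 0.024), and without L1high replicate 2 it was -0.40 and not called (adjusted p = 0.061). The call of CCNE2 was also lost without each of the L1low libraries (edgeR adjusted p between 0.056 and 0.085). CCNE1, the other cyclin E, had the fewest counts of the 45, with a log2 fold change of -0.20 and a 95% interval of -0.53 to 0.12. DTL, the substrate receptor of the ubiquitin ligase that destroys CDT1 during S phase, stood at 93.4, 98.2 and 91.3 CPM in L1high and 77.1, 78.1 and 72.1 CPM in L1low libraries and fell (-0.32, standard error 0.07, edgeR adjusted p = 0.017). E2F8, a repressor E2F that peaks in S phase, had a log2 fold change of -0.20 (adjusted p = 0.22 by edgeR) with no overlap between groups.

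**Figure D2:**
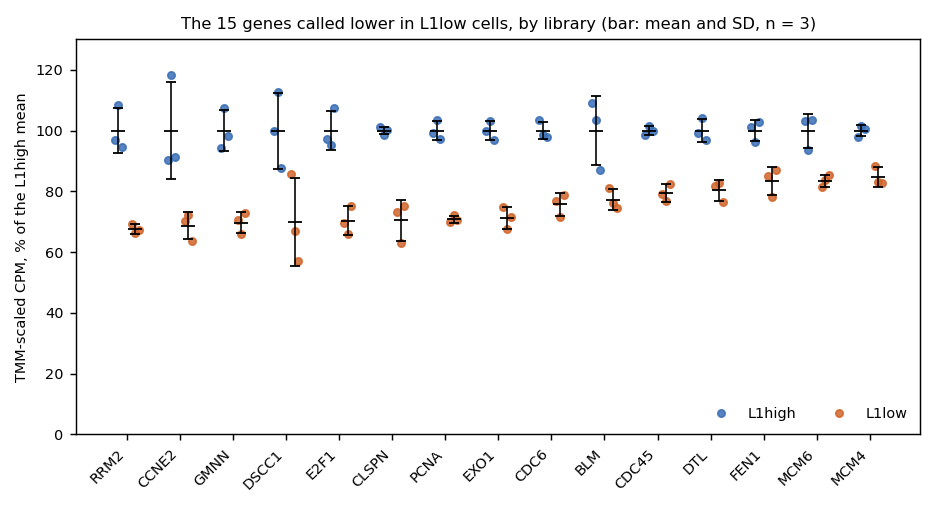
TMM-scaled CPM of the 15 genes called lower, as a percentage of the L1high mean of each gene (y axis, from 0), with each library as a point and the mean and SD (n = 3) as bars. In all 15 genes the 3 L1low points lie below the 3 L1high points, and the L1low points of DSCC1 are the most spread.

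The promoters of these genes were searched for the E2F core in RefSeq windows on GRCh38.p14 from 250 bases before to 50 bases after a gene's start. A match was TTTCCCGC, TTTGGCGC, TTTGCCGC or TTTCGCGC on either strand. A gene with several windows counted as matched where any of them held a match. Windows were held for 36 of the 45 genes, leaving MCM4, MCM5, DSCC1, CCNE2, E2F8, RPA2, POLD3, ATAD2 and WDR76 without, and 21 of the 36 (58.3%) had a match, against 3.99% of the 27305 genes with a window. The 45 were chosen as S-phase genes, many of them E2F targets, so a high share of matches could follow from that choice alone. The 27305 genes were not limited to those in the count table and were not matched for base composition. Matches were in 8 of the 12 called genes with a window (66.7%) and in 13 of the 24 that were not called (54.2%). The median log2 fold change was -0.20 over the 21 genes with a match and -0.26 over the 15 without. The CCAAT box (CCAAT, either strand) was in 26 of the 36 (72.2%, against 39.7% of all genes), the GC box (GGGCGG) in 30 (83.3%, against 48.3%) and TTTGAA, the CHR element core of late cell cycle genes, in 4 (11.1%, against 18.2%). No match says only that the letters are not in the window. Where a gene had several windows, the first with a match in the bases printed below was taken. The starts so taken for PCNA, GMNN and GINS2 lie within the annotated span of the gene, that of PCNA only a few bases inside it. The 160 bases before the start are shown, 5′ to 3′ with E2F matches in capitals, for 4 called genes (PCNA, GMNN, MCM6 and E2F1) and for 2 that were not called (CDT1 and GINS2), so that matches in both kinds of gene can be seen side by side.
PCNA (chr20:5126623-5126782, minus strand): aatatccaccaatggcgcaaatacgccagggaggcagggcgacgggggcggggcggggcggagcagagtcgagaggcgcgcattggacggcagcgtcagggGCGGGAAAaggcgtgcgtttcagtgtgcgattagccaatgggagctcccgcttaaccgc
GMNN (chr6:24775253-24775412, plus strand): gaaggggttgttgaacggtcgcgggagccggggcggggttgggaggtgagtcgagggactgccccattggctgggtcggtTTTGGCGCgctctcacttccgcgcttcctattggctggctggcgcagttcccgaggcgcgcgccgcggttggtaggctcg
MCM6 (chr2:135876444-135876603, minus strand): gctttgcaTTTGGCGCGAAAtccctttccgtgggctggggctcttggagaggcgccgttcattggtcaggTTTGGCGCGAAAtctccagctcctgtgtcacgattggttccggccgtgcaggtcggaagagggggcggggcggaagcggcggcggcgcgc
E2F1 (chr20:33686386-33686545, minus strand): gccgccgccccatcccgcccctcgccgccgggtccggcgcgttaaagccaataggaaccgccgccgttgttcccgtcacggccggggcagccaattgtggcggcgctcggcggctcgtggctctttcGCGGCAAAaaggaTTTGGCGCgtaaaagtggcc
CDT1 (chr16:88803629-88803788, plus strand): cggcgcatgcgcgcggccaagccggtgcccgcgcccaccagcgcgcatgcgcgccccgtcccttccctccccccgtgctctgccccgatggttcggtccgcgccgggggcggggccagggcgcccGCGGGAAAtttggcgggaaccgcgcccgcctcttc
GINS2 (chr16:85688955-85689114, minus strand): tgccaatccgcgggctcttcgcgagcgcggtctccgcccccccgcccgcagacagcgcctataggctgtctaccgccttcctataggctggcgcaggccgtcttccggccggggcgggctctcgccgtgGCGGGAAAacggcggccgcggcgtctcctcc
MCM6 held the E2F core at 2 places, where the run TTTGGCGCGAAA joins TTTGGCGC with the reverse strand of TTTCGCGC. The match of CDT1, which was not called, was the same 8 letters as that of PCNA.

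Of the 9 licensing genes 4 were called lower, against 3.37% of all genes. GMNN encodes geminin, which binds CDT1 and blocks a second round of licensing. It stood at 103, 117 and 107 CPM in the L1high libraries and 76.8, 71.8 and 79.3 CPM in the L1low libraries. The groups were well apart, and GMNN fell with a log2 fold change of -0.52 (standard error 0.08, edgeR adjusted p = 0.0014). CDC6, which loads the helicase together with the origin recognition complex, stood at 114, 109 and 108 CPM in L1high and 84.9, 78.9 and 86.9 CPM in L1low libraries and fell as well (-0.40, standard error 0.07, edgeR adjusted p = 0.0041). CDT1 itself stood at 61.2, 57.0 and 70.8 CPM in L1high and 59.8, 65.1 and 63.5 CPM in L1low libraries. The groups overlapped, and the 95% interval of its log2 fold change was -0.20 to 0.19.

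Of the 6 subunits of the MCM helicase, MCM4 and MCM6 were called lower. MCM4 stood at 241, 250.0 and 248 CPM in L1high and 218, 204 and 204 CPM in L1low libraries (log2 fold change -0.24, standard error 0.06, edgeR adjusted p = 0.035). MCM6 stood at 161, 146 and 162 CPM in L1high and 127, 131 and 133 CPM in L1low libraries (log2 fold change -0.26, standard error 0.07, edgeR adjusted p = 0.036). In both genes the groups were separate. MCM2 stood at 231, 209 and 249 CPM in L1high and 222, 227 and 239.7 CPM in L1low libraries, with a 95% interval of -0.16 to 0.16. The intervals of MCM5 (-0.15 to 0.20) and MCM7 (-0.18 to 0.13) also spanned 0, and that of MCM3 ran from -0.29 to 0.06, with L1low replicate 3 at 210.1 CPM above the L1high libraries. Per kilobase of the Ensembl canonical transcript, the subunits ranked in L1high cells from MCM7 at 136 ± 10.3 CPM per kb (SD, n = 3), through MCM2 at 66.9 ± 5.79, MCM3 at 66.1 ± 1.79 and MCM4 at 60.6 ± 1.09, to MCM6 at 41.7 ± 2.33 and MCM5 at 39.6 ± 3.75. MCM2 and MCM3 differed by less than their SD, as did MCM6 and MCM5. In L1low cells MCM6 stood at 34.8 ± 0.839 CPM per kb, below MCM5 at 40.3 ± 1.83. Of the subunits, exons of MCM7 overlap AP4M1 and those of MCM2 overlap a long non-coding RNA gene, both on the opposite strand, and the strand setting of the counting is not given in the sources used here.

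**Figure D3:**
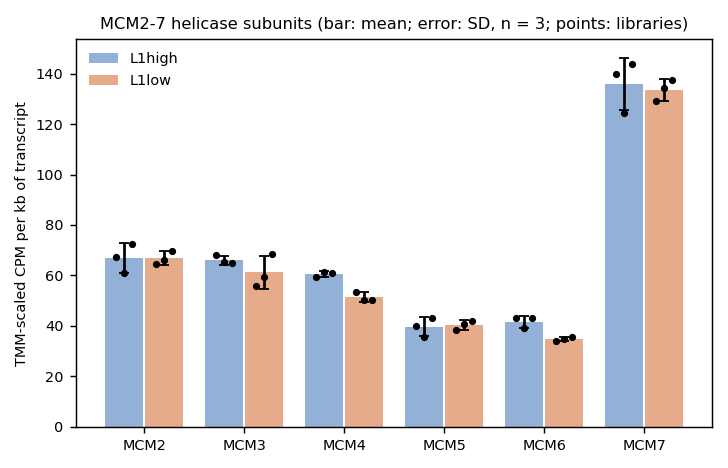
Level of the 6 MCM2 to MCM7 subunits in CPM per kb of the canonical transcript (y axis, from 0), with bars at the mean of 3 libraries, error bars at 1 SD and points for libraries. MCM7 stands highest at 136 ± 10.3 CPM per kb in L1high cells, and the L1low points of MCM4 and MCM6 lie below their L1high points.

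Of the proteins that turn the loaded helicase into the active CMG complex, CDC45 fell. It stood at 67.1, 69.1 and 68.0 CPM in L1high and 53.9, 52.2 and 56.1 CPM in L1low libraries, tight and separate in both groups (log2 fold change -0.33, standard error 0.07, edgeR adjusted p = 0.014). The GINS subunits GINS1 (-0.22, adjusted p = 0.18 by edgeR) and GINS2 (-0.20, adjusted p = 0.21) were not called. Their 95% intervals were -0.42 to -0.02 and -0.40 to -0.0039. Exons of GINS2 overlap GSE1 on the opposite strand, with a mean of 953 counts for GSE1 against 433 for GINS2. GSE1 was called higher (0.42, edgeR adjusted p = 0.0075). Exons of GINS1 overlap NINL, also on the opposite strand, which was not called. The part of these neighbours in the counts was not tested.

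At the fork, PCNA, the sliding clamp that holds polymerases on DNA, stood at 203, 211 and 198 CPM in the L1high libraries and 143, 147 and 144 CPM in the L1low libraries (ENSG00000132646; chromosome 20, 5114953 to 5126626). The L1low libraries lay close together and below every L1high library, and PCNA fell with a log2 fold change of -0.50 (standard error 0.06, edgeR adjusted p = 0.00046). CLSPN encodes claspin, an adaptor of the replication checkpoint. It stood at 26.8, 26.1 and 26.6 CPM in L1high and 19.4, 16.7 and 19.9 CPM in L1low libraries and fell (-0.51, standard error 0.10, edgeR adjusted p = 0.0085). FEN1, the flap endonuclease that trims Okazaki fragments, stood at 85.7, 81.5 and 87.1 CPM in L1high and 72.2, 66.2 and 73.7 CPM in L1low libraries, at the margin of the threshold (log2 fold change -0.26, standard error 0.07, edgeR adjusted p = 0.047). DSCC1, part of an alternative clamp loader, stood at 50.2, 56.7 and 44.1 CPM in L1high and 43.2, 33.8 and 28.8 CPM in L1low libraries. L1low replicate 1 was within 1 CPM of the lowest L1high library, while L1low replicate 3 was far below it, and the standard error of its log2 fold change of -0.52 was 0.14 (edgeR adjusted p = 0.043).

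The other fork genes were not called. RFC4, a clamp loader subunit, had a log2 fold change of -0.27 with an edgeR adjusted p of 0.053, and its adjusted p was 0.034 with DESeq2 and 0.0499 with RLE scaling. The clamp loader subunit RFC2 had an interval of -0.26 to 0.05. TIPIN of the fork protection complex (-0.27), the polymerase delta subunit POLD3 (-0.20) and the primase subunit PRIM1 (-0.24) had intervals wholly below 0 before adjustment. RPA2, of the single-strand binding complex, and POLA1, the catalytic subunit of polymerase alpha, had intervals of -0.26 to 0.10 and -0.20 to 0.14. PRIM1 shares exons with NACA on the same strand and RFC4 with EIF4A2 on the opposite strand, and both neighbours hold more counts. Exons of 4 called genes also overlap another gene. CCNE2 overlaps INTS8, DTL overlaps INTS7 and CLSPN overlaps a long non-coding RNA gene, all on the opposite strand. FEN1 overlaps FADS2 on the same strand. INTS8 held a mean of 1394 counts against 284 for CCNE2, and INTS7 1442 against 1596 for DTL. None of these neighbours was called, and their part in the counts was not tested.

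Of the 3 genes of nucleotide supply, RRM2 was called, with the most negative log2 fold change of the 45. RRM2 (ENSG00000171848; chromosome 2, 10120698 to 10211725), the small subunit of ribonucleotide reductase, which is made in S phase, stood at 254, 284 and 248 CPM in the L1high libraries and 182, 173 and 176 CPM in the L1low libraries. The L1low libraries were tight and all below the L1high libraries. RRM2 fell with a log2 fold change of -0.56 (standard error 0.07, edgeR adjusted p = 0.00043), the smallest p of the 45. Its pseudogene RRM2P3, to which reads of RRM2 could have been assigned, held a mean of 708 counts against 4132 for RRM2 and fell as well (-0.43, edgeR adjusted p = 0.010). RRM1, the large subunit of the same enzyme, stood at 182, 198 and 187 CPM in L1high and 189, 174 and 184 CPM in L1low libraries, with overlapping groups and an interval of -0.20 to 0.09. TYMS, thymidylate synthase, had an interval of -0.29 to 0.0037, and its exons overlap ENOSF1 on the opposite strand.

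Ratios of partner transcripts within a library, which do not depend on scaling between libraries, were computed for 6 pairs chosen after their values were seen. The ratio of RRM2 to RRM1 counts was 1.39, 1.44 and 1.32 in the L1high libraries and 0.963, 0.999 and 0.954 in the L1low libraries. That of GMNN to CDT1 was 1.68, 2.06 and 1.51 in the L1high libraries and 1.29, 1.10 and 1.25 in the L1low libraries. Both pairs were separated by group, as were MCM4 to MCM2 (1.08 ± 0.104 and 0.911 ± 0.0665; SD, n = 3) and MCM6 to MCM2 (0.682 ± 0.0282 and 0.569 ± 0.0108; SD, n = 3). Each of these 4 differences had an exact two-sided permutation p of 0.1, the smallest that 3 against 3 libraries allow. After Benjamini-Hochberg adjustment over the 6 pairs it was 0.15. All 4 pairs set a called gene over one that was not called, and the permutation p does not account for that choice. CCNE2 to CCNE1 (exact permutation p = 0.5) and RFC4 to RFC2 (exact permutation p = 0.3) overlapped between groups.

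**Figure D4:**
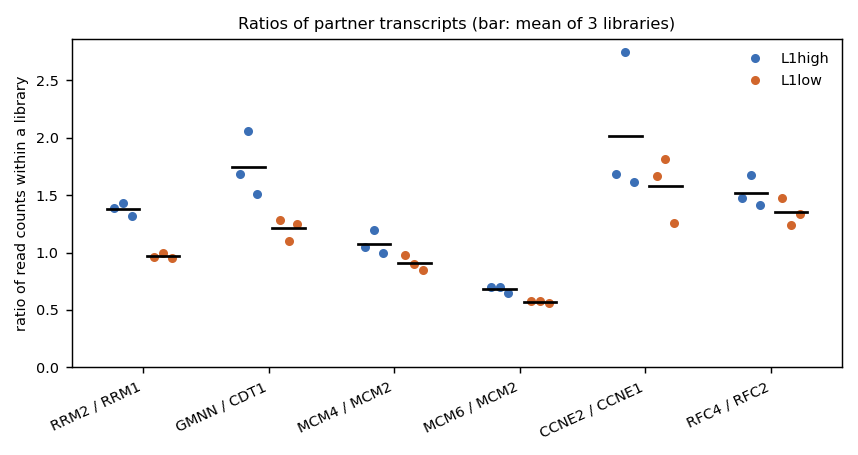
Ratio of read counts of 2 partner genes within each library (y axis, from 0) for 6 pairs, with points for the 3 L1high and 3 L1low libraries and bars at the means. The RRM2 to RRM1 points lie between 1.32 and 1.44 in L1high and between 0.954 and 0.999 in L1low libraries, and the CCNE2 and RFC4 pairs overlap.

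Of the genes for repair at forks, EXO1, an exonuclease of mismatch repair and end resection, stood at 87.9, 90.8 and 85.3 CPM in L1high and 65.9, 59.4 and 62.9 CPM in L1low libraries. The groups were separate with little spread, and EXO1 fell (-0.49, standard error 0.07, edgeR adjusted p = 0.0015). The helicase BLM, mutated in Bloom syndrome, stood at 66.7, 63.2 and 53.2 CPM in L1high and 49.5, 46.5 and 45.5 CPM in L1low libraries, and it fell (-0.37, standard error 0.09, edgeR adjusted p = 0.031). USP1, which removes ubiquitin from PCNA, ran from 83.6 to 104.6 CPM in L1high and from 59.6 to 88.6 CPM in L1low libraries. Its groups overlapped through L1low replicate 1, its log2 fold change was -0.38 (edgeR adjusted p = 0.10), and without that library it was -0.54 and called (adjusted p = 0.021). RAD51AP1, a factor of homologous recombination, had a log2 fold change of -0.35 (edgeR adjusted p = 0.085). The uracil glycosylase UNG (-0.08) and the helicase BRIP1 (-0.03) had intervals that spanned 0.

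None of the 8 genes of chromatin assembly and maintenance was called by edgeR, where 2 had an unadjusted p under 0.05, and DESeq2 called none. With 3.37% of all genes called lower, a count of 0 among 8 is near the background. Among the alternatives given below, SLBP alone of the 8 was called, with a replicate block and with offsets for GC content and length. Nearest to the threshold were ATAD2, a bromodomain ATPase (-0.20, edgeR adjusted p = 0.074), and SLBP, which binds the stem-loop of histone mRNAs (-0.31, edgeR adjusted p = 0.078), in both of which the groups were separate. The CAF-1 subunit CHAF1B (-0.34 to 0.06), the histone chaperone NASP (-0.10 to 0.17), CASP8AP2 of histone mRNA processing (-0.27 to 0.22) and WDR76 (-0.37 to 0.0017) are given by the 95% interval of the log2 fold change. The pseudogene NASPP1, to which reads of NASP could have been assigned, held a mean of 1067 counts against 3201.5 for NASP and was not called (0.08). Of the 45 genes, 7 have a pseudogene among the counted genes, and the part of these copies was not tested. The remodeler HELLS and UHRF1, which recruits the maintenance DNA methyltransferase, were the least certain of the 8. HELLS ran from 26.3 to 43.4 CPM within the L1low group, and UHRF1 from 17.5 to 24.8 CPM, ranges wider than the difference between the group means.

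The number of calls depended on single libraries. Over the 6 fits that each left out 1 library, between 40 and 44 of the 45 genes stayed below 0 and the median log2 fold change stayed between -0.24 and -0.21. RRM2, PCNA, GMNN, EXO1 and CDC6 were called in all 6. The count of genes called lower was 5 without L1low replicate 2 (background 1.20%), 7 without L1high replicate 1 (1.28%), 8 without L1low replicate 3 (2.36%) and at least 11 in the other 3 fits. In those 3 fits the background ran from 2.44% to 3.15%. E2F1 lost its call without L1low replicate 2 alone (edgeR adjusted p = 0.052). CLSPN lost it without L1high replicate 1 (0.054) and without L1low replicate 2 (0.061), as did CDC45 (0.070 and 0.094). DTL was called in 3 of the 6 fits, with adjusted p between 0.061 and 0.082 in the others. BLM, DSCC1 and CCNE2 were each called in 2 of the 6, with BLM at up to 0.17 and DSCC1 at up to 0.18 in the others. MCM4, MCM6 and FEN1 were each called in 1 of the 6. A comparison made in the study leaves out L1high replicate 3. Without that library 13 of the 45 were called lower, against 3.15% of all genes. Of these 13, 12 were among the 15, and USP1 was the other.

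Transcripts of the 45 genes had a median GC content of 44.0%, against 48.5% over all genes with a transcript. With offsets for the GC content and length of the transcripts, an alternative added after the data were seen, 17 of the 45 were called lower, but so were 7.21% of all genes, and the median log2 fold change was -0.16, with RRM2 at -0.50, PCNA at -0.41 and MCM2 at -0.09. CCNE2 was no longer called there (-0.35, edgeR adjusted p = 0.050). RFC4, SLBP and USP1 gained a call there (edgeR adjusted p of 0.032, 0.049 and 0.017).

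Other genes of the pathway were counted in the same fit, from lists written from general knowledge with earlier results of these data known. Of 42 further replication genes, 39 had a log2 fold change below 0 (median -0.15), 5 were called lower (11.9%) and none higher, where all genes had 51.5% below 0 and 3.37% called lower. RFC3, a clamp loader subunit (-0.59, edgeR adjusted p = 0.0040), MCM10, an initiation factor (-0.41, edgeR adjusted p = 0.0093), and ORC6 of the origin recognition complex (-0.35, edgeR adjusted p = 0.018) had the smallest p. Of 28 checkpoint and fork repair genes, 26 were below 0 (median -0.16), 2 were called lower (7.14%, against 3.37% of all genes) and none higher, and without single libraries the count fell to as low as 0. Of 20 further genes of nucleotide synthesis, 14 were below 0 (median -0.12), and the 2 called were CTPS1, CTP synthase (-0.53, edgeR adjusted p = 0.0010), and PPAT of purine synthesis (-0.36). Of 29 G1/S regulators in the table, 20 were below 0 (median -0.09), and 3 were called lower. E2F2, another activator E2F, had the most negative log2 fold change of these (-0.76, edgeR adjusted p = 0.0044), from 15.7 ± 1.70 CPM in L1high to 9.23 ± 1.22 CPM in L1low cells (SD, n = 3 each). The other 2 were CDC25A, the phosphatase that activates CDK2 (-0.50), and CCND3, cyclin D3 (-0.38).

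Mitotic genes were set beside the replication genes. Of 37 genes of mitosis and G2/M, 36 were below 0, against 51.5% of all genes. Of these 37, 12 were called lower (32.4%, against 3.37% of all genes), with a median log2 fold change of -0.23. CDK1, the mitotic kinase (-0.62), UBE2C (-0.39) and CKS2 (-0.50) had the smallest p. A difference between this list and the replication genes was not tested.

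**Figure D5:**
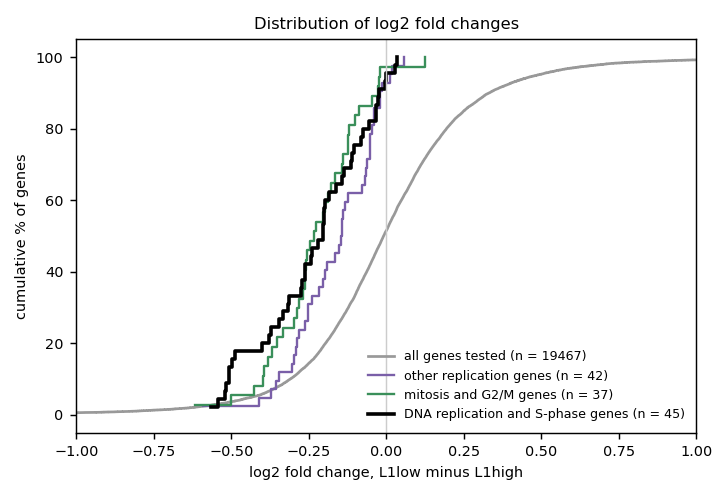
Cumulative percentage of genes (y axis) by log2 fold change (x axis, L1low minus L1high, shown from -1 to 1) for all 19467 genes tested, the 45 replication and S-phase genes, 42 other replication genes and 37 mitosis and G2/M genes. The curves of the 3 lists lie to the left of that of all genes, with medians of -0.20, -0.15 and -0.23 against -0.01.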

How the data were processed

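Per the labels and the study's methods, stranded mRNA libraries of FACS-sorted L3.6pl cells were sequenced in paired-end mode. The authors used BWA for alignment to GRCh38 and featureCounts for counting against Ensembl release 94. What they deposited is 1 raw read count for each gene and library, neither normalized nor pooled. Versions and the strand and multi-mapping options are not given in the sources used here. Symbols, positions, transcript lengths and GC content came from GENCODE release 44, also on GRCh38, which matched 19344 of the 19469 identifiers. Promoters came from RefSeq (GRCh38.p14).

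L1low was compared with L1high over all 6 libraries in R 4.3.3 with edgeR 4.0.16 (TMM factors, filterByExpr, quasi-likelihood test, Benjamini-Hochberg adjustment). A comparison made in the study leaves out L1high replicate 3, and that choice was an alternative. The standard error is the log2 fold change divided by the square root of F, and 95% intervals use the fit's degrees of freedom. The members and lists were chosen with earlier results of these data known. All 45 members are named, called members with full statistics, and up to 3 called genes per other list, of which some are not reported here. In a simulation of this comparison, 200 of 19469 genes were given a log2 change of 1, and 192 were recovered among 203 calls. It gave all genes a common dispersion. The changes of the 45 genes were all smaller than 1, and recovery at such sizes was not simulated. No 2 libraries of the same group agreed within sampling noise. Counts of the 45 genes ran from 127 (CCNE1) to 7318 (MCM7) per library. Library totals alone, RLE or upper-quartile factors, DESeq2 1.42.0, 2 other filters on low counts, a replicate block, each library left out and, added after the data were seen, offsets for GC content and length were tried.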

Additional observations from a re-analysis of the deposited data

How the results depend on the processing

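Over 630 log2 fold changes of the 45 genes under 14 alternatives, 562 kept their direction and their side of the threshold, 37 lost the call (35 of them when a library was left out), 14 gained one and 17 changed sign. The 17 belong to 8 genes near 0, called in neither fit. With each library left out, these log2 fold changes ran from -0.064 to 0.069 for MCM2, -0.070 to 0.096 for CDT1, -0.085 to 0.025 for MCM7, -0.042 to 0.10 for MCM5, -0.081 to 0.027 for POLA1, -0.17 to 0.11 for BRIP1 and -0.074 to 0.072 for CASP8AP2. With the replicate block, CDT1 was at 0.00017 and MCM2 at 0.0015. With the offsets for GC content and length, RRM1 was at 0.0041, MCM5 at -0.052 and CASP8AP2 at 0.010. With each library left out in turn, between 5 and 13 of the 45 genes were called lower, against 15 with all 6, and none was called higher. The median log2 fold change of the 45 then ran from -0.24 to -0.21. Over all genes, the calls ran from 234 to 614 lower and from 393 to 859 higher, against 657 and 891. Offsets for GC content and length gave 1403 lower and 1370 higher and a median of -0.16 for the 45, and the cause was not tested. The filters on low counts removed few genes and test little. DESeq2 called 17 of the 45 lower, against 4.21% of the 16825 genes to which it gave an adjusted p.

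Replicates with the same number are not known to be paired. The correlations of their deviations from the group means were 0.0743, 0.0906 and 0.208 for numbers 1, 2 and 3, and each library correlated best with its own number, a hint from the data and not from the design. With the replicate number as a block, 1143 genes were called lower and 1220 higher, and 19 of the 45 were called lower, which include all 15 and add RFC4, SLBP, RAD51AP1 and USP1.

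Leaving out a library also moved the other lists. Calls lower ran from 2 to 13 for mitosis and G2/M genes (12 with all libraries), from 1 to 5 for the other replication genes (5), from 1 to 4 for G1/S regulators (3), from 1 to 2 for nucleotide synthesis (2) and from 0 to 2 for checkpoint and fork repair genes (2). With the offsets, calls lower were 22 for mitosis and G2/M, 14 for the other replication genes, 5 for G1/S regulators, 4 for nucleotide synthesis and 5 for checkpoint and fork repair genes. With the replicate block they were 19, 10, 4, 4 and 2 in that order. Calls lower also rose over all genes, from 3.37% to 7.21% with the offsets and to 5.87% with the replicate block.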
